A study of Mus musculus with 6 samples.

Results

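The 6 libraries of the series were divided by the abundance of neutrophil transcripts, and all genes were compared between the 3 libraries richest and the 3 poorest in them. The libraries hold messenger RNA of mouse alveolar macrophages, the macrophages of the air spaces, recovered by bronchoalveolar lavage (washing of the airways). Of the 6, 3 came from wild-type (WT) mice and 3 from mice deficient in Phlpp1, a phosphatase that removes activating phosphates from the kinase Akt. Every mouse had received bleomycin, an antitumour drug that damages lung tissue and leads to fibrosis, at 5 mg per kg, with collection at day 7. The labels give neither the age nor the strain of the mice, do not describe the Phlpp1 allele, and do not say that each library is a separate animal, so the spread between libraries may be technical. No untreated mice were analysed here. Total counts lay between 13340861 and 15843764 per library.

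Each library was ranked by the mean of log2(CPM + 1) over 6 neutrophil genes, where CPM is a gene's read count scaled to a library total of 1000000. The genes were S100a8, S100a9, Retnlg, Cxcr2, Csf3r and Mmp9. WT library 2 and Phlpp1-deficient libraries 1 and 2 were the 3 highest and are called rich here. WT libraries 1 and 3 and Phlpp1-deficient library 3 were the 3 lowest and are called poor. Both classes therefore mix the genotypes, 1 WT with 2 Phlpp1-deficient libraries among the rich and 2 WT with 1 Phlpp1-deficient library among the poor. The classes were chosen by measured values of the same libraries, the counts of these 6 genes, and differences between rich and poor are given as values with their spread and without a p. Genotype was not used in the choice and is tested further on.

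Neutrophils are short-lived white cells made in the bone marrow, where they fill several kinds of granules in sequence. Primary granules are made first and hold myeloperoxidase and serine proteases, secondary granules hold lipocalin and cathelicidin, and tertiary granules hold gelatinase. Transcripts of primary granule proteins are largely lost before the cell leaves the marrow, whereas genes for receptors, S100 proteins and cytokines stay active in the mature cell. In injured lungs neutrophils follow chemokines into the air spaces, and macrophages take them up once they die. A lavage sample from such a lung can therefore hold both cell types.

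The ranking placed WT library 2 first with a marker mean of 9.90, followed by Phlpp1-deficient library 2 at 9.62 and library 1 at 9.12. The poor libraries were WT library 3 at 7.69, Phlpp1-deficient library 3 at 7.21 and WT library 1 at 6.204. Across the dividing line the gap was 1.43, the widest between neighbours in the order. Values below are given in the order WT library 1, WT library 3 and Phlpp1-deficient library 3 for the poor class, and WT library 2, Phlpp1-deficient library 1 and Phlpp1-deficient library 2 for the rich class.

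Of the genes behind the ranking, S100a9, a calcium-binding protein of the neutrophil cytosol, had 187, 504 and 205 CPM in the poor and 2243, 991 and 1574 CPM in the rich libraries. Its partner S100a8 had 69.05, 166 and 115 CPM in the poor and 945, 545 and 887 CPM in the rich libraries. Retnlg, a resistin-like protein secreted by neutrophils, had 2.08, 26.8 and 31.9 CPM in the poor and 142, 97.4 and 174 CPM in the rich libraries. It was the most variable of the 6 genes, with WT library 1 far below the other 5 libraries. Csf3r, the receptor for the growth factor G-CSF, had 408, 713 and 441 CPM in the poor and 3610.1, 1834 and 2071 CPM in the rich libraries. Cxcr2, the receptor for neutrophil-attracting chemokines, had 99.9, 282 and 219.6 CPM in the poor and 1156, 729.7 and 1006 CPM in the rich libraries. Mmp9, the gelatinase of tertiary granules, had 94.99, 159.9 and 137 CPM in the poor and 587, 413 and 465 CPM in the rich libraries. These values describe the choice and show nothing beyond it. Summed over the 6 genes, CPM ranged from 861 in WT library 1 to 8684 in WT library 2, so neutrophil transcripts were present in every library, the poor ones included.

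**Figure D1:**
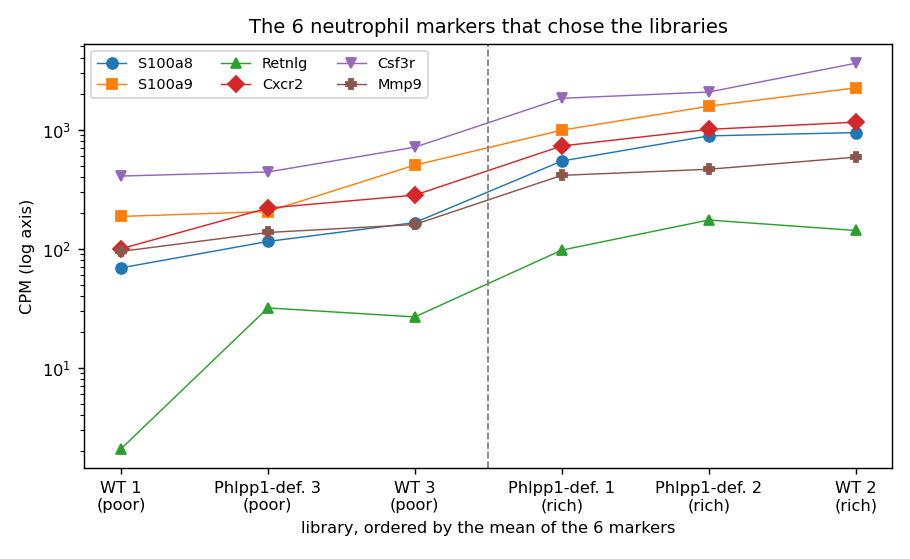
Expression of the 6 genes that ranked the libraries, as CPM on a logarithmic vertical axis against the library, ordered by the mean of the 6 genes, with 1 line per gene and the dashed line between the poor and the rich class. WT library 2 and Phlpp1-deficient libraries 1 and 2 lie above the other 3 libraries for every gene, and WT library 1 is lowest for every gene.

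The same 3 libraries were highest when the markers were replaced by genes for secondary granules, tertiary granules, surface receptors or cytosolic proteins of neutrophils. They were also highest with deposited FPKM (counts scaled for library total and gene length) in place of CPM, and with any 1 of the 6 genes left out. Both settings reuse the values that chose the classes. Because the 3 lay above the others for each of the 6 genes, leaving 1 out could not change the classes. Primary granule genes gave another order, sharing only 1 of the 3 libraries. Between the genotypes the marker mean was 7.93 ± 1.86 in WT and 8.65 ± 1.27 in Phlpp1-deficient libraries (SD, n = 3 each). The difference of 0.72 gave p = 0.7 in a two-sided exact permutation test, in which 3 libraries against 3 cannot give less than 0.1.

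The labelled cell type was checked on 10 defining markers of alveolar macrophages, all of which passed the filter described below. On the FPKM scale, which allows genes to be compared, their means over the 6 libraries ran from 5.80 for Fabp1, a fatty acid binding protein, to 2010 for Chil3, a chitinase-like protein. The scavenger receptor Marco had 169 FPKM in the poor and 157 FPKM in the rich libraries, and the sialic acid receptor Siglecf had 21.3 and 28.9 FPKM. S100a9 was at 410.3 and 2201 FPKM on the same scale. On the log2(CPM + 1) scale, rich minus poor, Chil3 and Siglecf differed by 0.51 and 0.46. The remaining markers were lower in the rich class: Fabp4 (-1.19), Itgax (-0.61), Mrc1 (-0.60), Ear2 (-0.58), Fabp1 and Pparg (-0.48 each), Car4 (-0.30) and Marco (-0.20). The classes overlapped for all of these markers but Fabp4 and Itgax. Macrophage transcripts were thus present in both classes beside those of neutrophils, most of these markers being lower in the rich class. In bulk RNA, fewer cells of a type and less RNA per cell cannot be told apart.

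A mean of 1 CPM or more over the 6 libraries was required, which left 13445 genes, and a gene was called where the classes did not overlap and their means of log2(CPM + 1) differed by at least 1, a 2-fold difference. By this rule 319 genes were higher in the rich libraries (2.37%) and 116 were lower (0.863%). Counts called within the gene lists are to be read beside these shares. Of the 319, 50 were the 6 ranking genes, whose calls follow from the choice of classes, or stood on the lists of neutrophil granule, receptor and cytosolic genes. With those included, 85 stood on any of the 37 gene lists used and 234 on none. Of the 116 lower genes, 21 stood on a list and 95 on none. Classes that do not overlap fix the sign within each genotype but not its size. Within WT and within Phlpp1-deficient libraries alike, 213 of the 319 differed by at least 1 on the log2 scale, as did 54 of the 116 lower genes. The median gene differed by -0.10 on this scale, and by -0.04 with TMM scaling, which adjusts library totals for composition. With column totals, 5105 of the 13445 genes (38%) were above 0, and sign counts within the lists are to be read beside that share. TMM gave 367 genes higher and 83 lower, and median-of-ratios (RLE) scaling gave 394 and 73, so higher genes made up 73.3% of the calls with column totals, 81.6% with TMM and 84.4% with RLE.

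WT library 2 had the highest value of the 6 in 201 of the 319 higher genes, Phlpp1-deficient library 2 in 72 and Phlpp1-deficient library 1 in 46. Among the 116 lower genes, by contrast, Phlpp1-deficient library 1 was lowest in 61, WT library 2 in 29 and Phlpp1-deficient library 2 in 26. The library at the extreme was thus most often WT library 2 for higher genes and Phlpp1-deficient library 1 for lower genes.

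**Figure D2:**
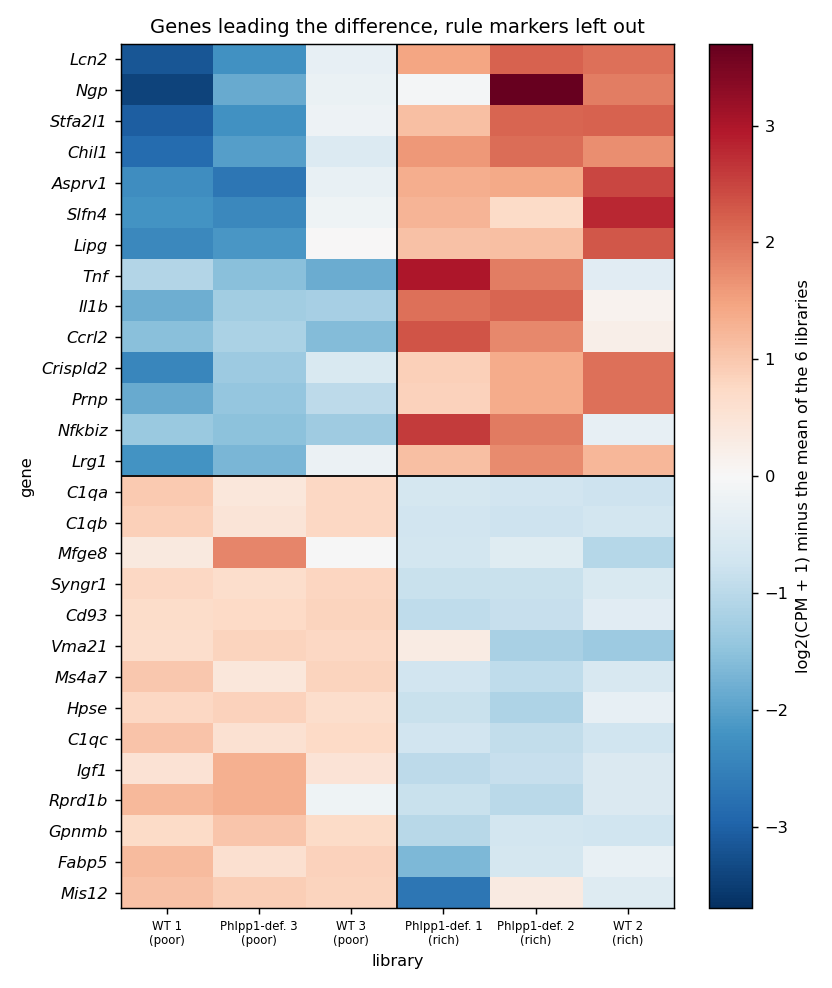
Heat map of the 14 leading higher and the 14 leading lower genes by size of difference, rows being genes and columns libraries, coloured by log2(CPM + 1) relative to the gene's mean over 6 libraries. The vertical line separates poor from rich libraries. Tnf, Ccrl2 and Nfkbiz are highest in Phlpp1-deficient library 1, and Asprv1, Slfn4 and Lipg in WT library 2.

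Of 15 secondary granule genes tested, 10 were called higher and 0 lower, with a median difference of 1.68 against -0.10 for all genes. Phlpp1-deficient library 2 was the highest of the rich libraries in 11 of the 15. Among the called genes was Camp, which codes for cathelicidin, with most of its signal in that library. It had 0, 0.268 and 0 CPM in the poor and 0.597, 0.441 and 15.9 CPM in the rich libraries. Lcn2 (ENSMUSG00000026822, chromosome 2, 32384633 to 32388252, minus strand), which codes for lipocalin 2, a protein that withholds iron from bacteria, had 6.63, 54.6 and 13.6 CPM in the poor and 281, 188 and 309 CPM in the rich libraries. The classes did not overlap and differed by 3.79 (SE 0.87), the largest difference among the genes named by rule. Ngp, neutrophilic granule protein (ENSMUSG00000032484, chromosome 9, 110419747 to 110423012, plus strand), had 0, 8.03 and 1.95 CPM in the poor and 38.5, 9.20 and 138 CPM in the rich libraries, with a difference of 3.68 (SE 1.42). It had no count in WT library 1, and Phlpp1-deficient library 1 lay close to WT library 3. Chil1, a chitinase-like protein of secondary granules (ENSMUSG00000064246, chromosome 1, 134182176 to 134190181, plus strand), had 8.46, 47.2 and 15.7 CPM in the poor and 224, 205 and 282 CPM in the rich libraries and a difference of 3.59 (SE 0.70). The haptoglobin gene Hp, whose product binds free haemoglobin, had 60.97, 195 and 83.2 CPM in the poor and 755, 445 and 679 CPM in the rich libraries. Without overlap, its difference was 2.60 (SE 0.55).

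The promoters of Ngp and Lcn2 are shown because both genes are classical targets of the C/EBP transcription factors, which drive granule genes in maturing neutrophils. The windows run from 250 bases before to 50 bases after the start of the gene in RefSeq (GRCm38.p6, written along the strand of the gene). RefSeq starts Lcn2 at 32387739 and Ngp at 110419808, whereas the GENCODE coordinates above start them at 32388252 and 110419747, so the Lcn2 window lies inside the GENCODE gene. In the sequences, capitals mark matches to TTGCNNAA on either strand.
Ngp (chr9:110419558-110419857, plus strand): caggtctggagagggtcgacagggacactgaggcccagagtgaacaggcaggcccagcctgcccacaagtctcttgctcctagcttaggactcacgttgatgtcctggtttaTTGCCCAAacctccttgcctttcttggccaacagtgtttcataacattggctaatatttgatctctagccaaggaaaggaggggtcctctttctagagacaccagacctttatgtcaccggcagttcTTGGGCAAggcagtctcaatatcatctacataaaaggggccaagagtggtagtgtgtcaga
Lcn2 (chr2:32387690-32387989, minus strand): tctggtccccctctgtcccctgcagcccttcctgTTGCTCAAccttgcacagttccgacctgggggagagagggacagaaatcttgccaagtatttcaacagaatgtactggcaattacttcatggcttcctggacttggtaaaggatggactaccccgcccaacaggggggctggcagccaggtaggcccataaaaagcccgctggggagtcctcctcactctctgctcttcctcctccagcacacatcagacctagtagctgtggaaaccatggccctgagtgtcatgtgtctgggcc
Ngp held 2 matches and Lcn2 held 1. Among tested genes with a window, 1056 of 10158 held the motif (10.4%), as did 32 of 229 genes called higher (14%), 14 of 88 called lower (15.9%) and 10.8% of all windows in the RefSeq table. These shares describe letters in the windows, and the motif was chosen with the values known.

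Other genes of the same granules were not called. Ltf, which codes for lactoferrin, differed by 0.01, and Lyz2 and Cybb, which macrophages also express strongly, differed by -0.95 and -0.81, toward lower values in the rich libraries. These 3 were picked after inspection of the values. Of the tertiary granule and secretory vesicle genes, 2 of 7 were called higher, with a median of 0.71. Lrg1, a leucine-rich glycoprotein released by neutrophils, had 15.9, 66.9 and 23.6 CPM in the poor and 185, 171 and 265 CPM in the rich libraries and differed by 2.75 (SE 0.63). Mmp8, the neutrophil collagenase, had 29.98, 43.4 and 48.4 CPM in the poor and 221, 64.2 and 103 CPM in the rich libraries, with a difference of 1.49 (SE 0.55). Its difference was 2.58 within WT and 0.74 within Phlpp1-deficient libraries.

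Of 8 primary granule genes listed, 5 passed the filter of 1 CPM and 1 was called higher, with a median of -0.07. The call was lost without Phlpp1-deficient library 2 or library 3 and with a pseudocount of 5. That gene, Prtn3 (proteinase 3), had 0.379, 0.736 and 0 CPM in the poor and 1.19, 0.883 and 3.70 CPM in the rich libraries. Mpo, which codes for myeloperoxidase, the enzyme that makes hypochlorous acid, had 0, 0 and 0 CPM in the poor and 0, 0 and 11.02 CPM in the rich libraries. All of its signal was in Phlpp1-deficient library 2. Elane, Ctsg and Bpi, which code for other proteins of these granules, lay under the filter. The remaining 3 members are expressed outside neutrophils too. Ctsc, the protease that activates granule proteases, had 962, 995 and 992 CPM in the poor and 602, 549 and 739 CPM in the rich libraries. It and the tetraspanin Cd63 were lower in every rich library, with differences of -0.65 (SE 0.13) and -0.49 (SE 0.15), and Serpinb1a, an inhibitor of neutrophil proteases, differed by -0.07 with overlapping classes.

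Surface receptors of neutrophils were called higher in 13 of 24 genes and lower in none, with a median of 1.07. Il1r2, a decoy receptor that binds interleukin-1 without signalling, had 55.4, 171 and 121 CPM in the poor and 749, 522 and 683 CPM in the rich libraries, a difference of 2.61 (SE 0.50). Trem1, a receptor that amplifies inflammatory signalling in myeloid cells, had 43.99, 111 and 92.4 CPM in the poor and 322, 407 and 513 CPM in the rich libraries and differed by 2.39 (SE 0.45). Clec4e (Mincle), which senses mycobacterial glycolipids and dead cells, had 36.2, 66.3 and 30.1 CPM in the poor and 164, 123 and 146 CPM in the rich libraries. The classes were separate for all 3 genes. Mrgpra2b, another receptor gene in the list, differed by 2.42, but its transcript is 99.8% identical to that of Mrgpra2a over 1236 bases.

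Cytosolic and secreted neutrophil genes held 18 called higher of 34 tested and 0 lower, with a median of 1.54. Stfa2l1, of the stefin family of cysteine protease inhibitors, had 0.379, 9.11 and 1.42 CPM in the poor and 51.1, 23.8 and 49.7 CPM in the rich libraries, a difference of 3.64 (SE 0.92). Asprv1, a retroviral-like aspartic protease first described in skin, had 21.1, 89.5 and 16.1 CPM in the poor and 599, 278 and 289 CPM in the rich libraries and a difference of 3.49 (SE 0.83). Neither gene overlapped between the classes, although Stfa2l1 shares 368 bases at 96.5% identity with Stfa2. Of the oxidase and extracellular trap genes 1 of 11 was called: Padi4, the enzyme that citrullinates histones when neutrophils cast out chromatin, had 5.49, 13.1 and 7.20 CPM in the poor and 47.3, 19.7 and 28.4 CPM in the rich libraries. The oxidase subunits Ncf1 and Ncf4 differed by 0.86 and 0.87 and were not called, and 2 of the list were called without WT library 3.

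Transcription factors of granulocyte development were called higher in 4 of 15 genes, Cebpe, Cebpd, Junb and Klf2, with a median of 0.32. Without Phlpp1-deficient library 3, 2 were called. Of the 15, 10 were above 0 and 5 below, among the latter Cebpa, at -0.88 with every rich value below every poor one. Junb and Klf2 also stand on the list of immediate early genes given below. Cebpe, which is required for secondary granule formation, had 1.51, 3.15 and 4.05 CPM in the poor and 7.17, 6.03 and 8.03 CPM in the rich libraries. Its difference was 1.10 (SE 0.32). Cebpd, a C/EBP factor that inflammation induces, had 24.7, 25.9 and 8.25 CPM in the poor and 70.9, 28.1 and 35.4 CPM in the rich libraries. Here the poor WT libraries came close to the rich Phlpp1-deficient ones, and Phlpp1-deficient library 3 was far below all others.

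A second group of higher genes codes for cytokines and their early response, and for several of them the difference was larger within Phlpp1-deficient than within WT libraries. Il1b (ENSMUSG00000027398, chromosome 2, 129364570 to 129371139, minus strand), the main secreted form of interleukin-1 in myeloid cells, had 198, 293 and 284 CPM in the poor and 763, 2857 and 3073 CPM in the rich libraries and differed by 2.88 (SE 0.68). Tnf, the inflammatory cytokine tumour necrosis factor (ENSMUSG00000024401, chromosome 17, 35199381 to 35202007, minus strand), had 46.3, 27.6 and 33.4 CPM in the poor and 75.1, 802 and 373 CPM in the rich libraries. The classes did not overlap and differed by 2.98 (SE 1.02), with 1.05 within WT and 3.99 within Phlpp1-deficient libraries. Nfkbiz, a nuclear regulator of NF-kB target genes, had 50.3, 52.4 and 45.6 CPM in the poor and 107, 800.2 and 499 CPM in the rich libraries, and 1.04 against 3.76 for the same split. For both genes the 2 rich Phlpp1-deficient libraries stood well above WT library 2.

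Among attractants and growth factors of neutrophils 5 of 25 were called higher, with a median of 0.96. The median was -0.30 within WT and 1.5 within Phlpp1-deficient libraries. Cxcl2, a chemokine that binds Cxcr2, had 63.2, 58.6 and 169.6 CPM in the poor and 83.3, 2341 and 2408 CPM in the rich libraries. Cxcl1, which acts on the same receptor, had 6.44, 2.14 and 14.4 CPM in the poor and 2.54, 218 and 162 CPM in the rich libraries. Both had high values in the 2 rich Phlpp1-deficient libraries while WT library 2 lay among the poor libraries, so neither was called. Without WT library 2, 17 of the list were called.

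The promoters of these 2 chemokine genes, neighbours on chromosome 5, are shown because NF-kB is known to act there. Windows and build are as above, and capitals mark matches to a kappaB motif, GGG followed by any 3 bases and TTCC, on either strand, where a match on one strand can overlap a match on the other.
Cxcl2 (chr5:90903649-90903948, plus strand): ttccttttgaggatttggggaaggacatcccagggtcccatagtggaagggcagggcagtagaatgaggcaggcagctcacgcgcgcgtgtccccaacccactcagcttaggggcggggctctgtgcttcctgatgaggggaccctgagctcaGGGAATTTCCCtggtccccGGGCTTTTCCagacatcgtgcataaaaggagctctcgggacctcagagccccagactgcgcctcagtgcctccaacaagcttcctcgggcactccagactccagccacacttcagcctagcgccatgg
Cxcl1 (chr5:90890995-90891294, plus strand): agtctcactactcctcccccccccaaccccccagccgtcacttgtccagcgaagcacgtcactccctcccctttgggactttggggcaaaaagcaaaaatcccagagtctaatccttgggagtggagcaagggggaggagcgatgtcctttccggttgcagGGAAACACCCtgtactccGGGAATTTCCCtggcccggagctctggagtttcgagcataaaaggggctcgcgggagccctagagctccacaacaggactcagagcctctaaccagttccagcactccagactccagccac
Each window held 3 matches. Of tested genes with a window, 742 held the motif (7.30%), as did 6.99% of those called higher, 7.95% of those called lower and 5.56% of all windows. The motif was again chosen with the values known.

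Immediate early genes, which stimulation or cell handling induces within minutes, were called higher in 14 of 32, with a median of 1.16 over the classes, 0.48 within WT and 1.58 within Phlpp1-deficient libraries. Egr1, a zinc finger transcription factor, had 112, 68.4 and 113 CPM in the poor and 125, 956 and 1781 CPM in the rich libraries and a difference of 2.64 (SE 1.18). Nr4a1, a nuclear receptor induced by stimulation, had 37.6, 36.5 and 43.2 CPM in the poor and 68.9, 549.8 and 403 CPM in the rich libraries, and Dusp1, a phosphatase that switches off MAP kinases, had 171, 183 and 310.3 CPM in the poor and 336, 1538 and 1656 CPM in the rich libraries. For all 3 the rich Phlpp1-deficient libraries were highest, and WT library 2 was closest to the poor class. The number called was 22 without WT library 2.

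NF-kB response genes were called higher in 5 of 30, with a median of 0.50. Ptgs2, the inducible cyclooxygenase, had 23.4, 19.8 and 29.3 CPM in the poor and 31.4, 343 and 293 CPM in the rich libraries. Nos2, the inducible nitric oxide synthase, had 0.442, 5.29 and 0.675 CPM in the poor and 15.8, 9.71 and 18.6 CPM in the rich libraries. Both were separate between the classes, and the list had 10 called genes without WT library 2 and 8 without WT library 3. Interleukin-1 and inflammasome genes were called in 5 of 22, with a median of 0.59. Nlrp3, the sensor of the best-known inflammasome, differed by 1.83 (SE 0.28) and Il1f9, which codes for interleukin-36 gamma, by 2.40 (SE 0.64).

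**Figure D3:**
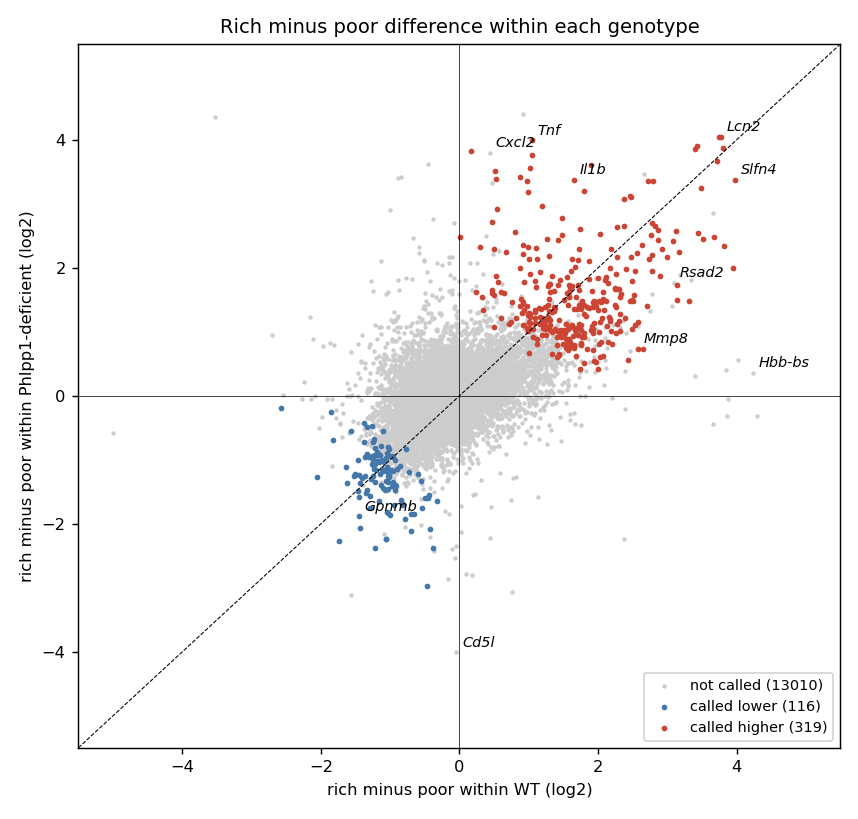
Difference between rich and poor libraries within WT on the horizontal axis and within Phlpp1-deficient libraries on the vertical axis, both as log2(CPM + 1), for all 13445 tested genes. Genes called higher (319) lie in the upper right, with Tnf far above the diagonal of equal differences and Lcn2 close to it. Cxcl2, above the diagonal, and Rsad2, below it, were not called.

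Of the 319 higher genes, 40 differed by at least 1 more within Phlpp1-deficient than within WT libraries, and another 40 by at least 1 more within WT. The first 40 held 11 immediate early genes, 4 NF-kB response genes and 3 attractants, and the second 40 held 0 of each. Within WT the rich side is 1 library, and within Phlpp1-deficient mice the poor side is 1 library. Genotype and single libraries cannot be told apart here, and this split was not tested.

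Type I interferon genes had another order among the rich libraries. WT library 2 was the highest of the 3 in 30 of 30 genes, and the list median was 1.80 within WT and 0.70 within Phlpp1-deficient libraries. Over the classes 3 of 30 were called higher (10%, beside 2.37% of all genes), Slfn4, Oas2 and Oasl2. The median was 0.84, with 28 of 30 above 0. Slfn4, a Schlafen family gene induced by interferon in myeloid cells (ENSMUSG00000000204, chromosome 11, 83175186 to 83190216, plus strand), had 344, 1405 and 299.7 CPM in the poor and 11002, 3779 and 2591 CPM in the rich libraries. Its difference was 3.18 (SE 0.95), though its transcript matches Slfn3 at 96.2% identity over 1172 bases. Rsad2 (viperin), an antiviral enzyme, had 99.9, 371 and 105 CPM in the poor and 1658, 497 and 262 CPM in the rich libraries. Ifit1, which binds viral RNA, had 97.1, 289.8 and 99.8 CPM in the poor and 1164, 397 and 232 CPM in the rich libraries. In both genes WT library 3, from the poor class, lay above Phlpp1-deficient library 2. Leaving out WT library 3 gave 17 called genes, and leaving out Phlpp1-deficient library 2 gave 12.

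Of 27 genes associated with macrophages of fibrotic lungs, 9 were called lower and 0 higher, with a median of -0.88. At any size of difference, 19 had every rich value below every poor one, beside 21.4% of all genes. Gpnmb, a membrane glycoprotein of lipid-laden macrophages (ENSMUSG00000029816, chromosome 6, 49036546 to 49070929, plus strand), had 1911, 1914 and 2416 CPM in the poor and 699, 579 and 738 CPM in the rich libraries, a difference of -1.63 (SE 0.15). Fabp5, a fatty acid binding protein, had 757, 612 and 513 CPM in the poor and 278, 107 and 215 CPM in the rich libraries and differed by -1.73 (SE 0.44). Igf1, insulin-like growth factor 1, had 72.3, 71.1 and 126 CPM in the poor and 34.04, 24.9 and 27.2 CPM in the rich libraries, and Trem2, a lipid-sensing receptor, had 192, 171 and 171 CPM in the poor and 69.6, 62.5 and 81.7 CPM in the rich libraries. All 4 were separate between the classes. The other called members were Spp1, Mmp12, Timp2, Ctsb and Ctsl, between -1.28 and -1.14. With each library left out in turn, 8 to 13 members were called.

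Markers of monocytes and recruited macrophages were mixed, with 12 of 30 above 0, beside 38% of all genes. Of them 6 were called lower and 1 higher. The median was -0.26, with -0.13 within WT and 0.02 within Phlpp1-deficient libraries. The 3 chains of complement C1q, which macrophages make and which bridges dying cells to phagocytes, were all lower. C1qc (ENSMUSG00000036896, chromosome 4, 136889804 to 136893065, minus strand) had 622, 499 and 441 CPM in the poor and 180.4, 182 and 160.2 CPM in the rich libraries and a difference of -1.56 (SE 0.16). C1qa and C1qb had differences of -1.43 (SE 0.16) and -1.43 (SE 0.12). Ms4a7, a tetraspan membrane protein of macrophages, had 63.2, 56.04 and 41.8 CPM in the poor and 20.1, 18.4 and 15.6 CPM in the rich libraries. Apoe and Lyz1 were the other lower genes, and the call of Apoe, at a difference of 2-fold, was lost under TMM or RLE, with a pseudocount of 5 and without any 1 of the WT libraries. Cd14, the lipopolysaccharide co-receptor, went the other way with 132, 261 and 166 CPM in the poor and 499, 734 and 1119 CPM in the rich libraries. Other members above 0 were not called, among them Plac8, Vcan and Ifi204, with differences of 1.07, 1.24 and 1.17 and overlapping classes, and Treml4, with 0.94 and no overlap. Without WT library 3, 5 members were called higher. These 4 genes were picked after inspection of the values.

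Genes for apoptotic cell uptake had 2 of 24 called lower and 1 higher, and a median of -0.40. Mfge8, a secreted protein that links dying cells to integrins, had 124, 95.1 and 337 CPM in the poor and 45.8, 58.7 and 69.6 CPM in the rich libraries, a difference of -1.45 (SE 0.58). Gas6, a ligand of the Mertk receptor, had 26.6, 20.8 and 21.7 CPM in the poor and 9.48, 10.2 and 9.88 CPM in the rich libraries, and Mertk itself had 234, 232 and 299 CPM in the poor and 124, 100.9 and 161 CPM in the rich libraries. The last gene was separate between the classes but was just short of a 2-fold difference. The number called lower was 8 without Phlpp1-deficient library 2, 1 without library 3 of that genotype, and 6 when WT library 1 was left out. The higher call was lost without WT library 2. The scavenger receptors were below 0 in 13 of 13 genes, with a median of -0.49 and 0 called. Among them Cd5l, a protein secreted by tissue macrophages, had 4.80, 6.96 and 47.4 CPM in the poor and 5.60, 1.62 and 2.49 CPM in the rich libraries. Only Phlpp1-deficient library 3 was high, and the classes overlapped.

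Lysosomal genes were called lower in 3 of 36, Ctsb, Ctsl and Psap, of which Ctsb and Ctsl also counted among the fibrosis-associated genes. The list had a median of -0.72, and 25 of the 36 had every rich value below every poor value at any size of difference. Over all genes that share was 21.4% (2879 genes), and 10.6% (1428) had every rich value above. These totals depended on the scaling, with 2296 below and 1740 above under TMM and 1989 below and 1958 above under RLE. Ctsb, cathepsin B, had 5337, 5077 and 5195 CPM in the poor and 2496, 1889 and 2279 CPM in the rich libraries. Psap, the precursor of the saposins that help degrade sphingolipids, had 10365, 10074 and 10827 CPM in the poor and 4937, 4499.7 and 5617 CPM in the rich libraries. The numbers called were 9 without Phlpp1-deficient library 2, 1 without library 1 of that genotype, and 8 when WT library 3 was left out.

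Resident alveolar macrophage markers were called lower in 2 of 32 (6.25%, beside 0.863% of all genes) and had a median of -0.47. Fabp4 had 56.6, 45.5 and 88.0 CPM in the poor and 31.7, 18.7 and 30.002 CPM in the rich libraries, a difference of -1.19 (SE 0.36). Bhlhe41, a transcription factor of alveolar macrophage identity, had 143, 81.5 and 89.5 CPM in the poor and 45.9, 45.3 and 48.3 CPM in the rich libraries. The mean over the list was 6.31 in WT library 2, 6.47 in Phlpp1-deficient library 1 and 7.22 in library 2, against 7.22, 6.73 and 7.27 in the poor libraries. Phlpp1-deficient library 2 was thus as high as poor libraries. Without it 7 members were called lower, with 4 when WT library 3 and 1 when WT library 1, Phlpp1-deficient library 1 or library 3 was left out instead.

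Outside any list, the largest lower difference was that of Mis12, a kinetochore gene that overlaps Derl2 in the annotation, with 54.2, 44.8 and 47.4 CPM in the poor and 17.7, 3.09 and 31.6 CPM in the rich libraries. It differed by -1.87 (SE 0.90), with a wide spread among the rich libraries. Hpse, the heparan sulfate cleaving enzyme heparanase, had 70.5, 65.01 and 74.8 CPM in the poor and 32.6, 22.5 and 18.1 CPM in the rich libraries. Cd93, a C-type lectin-like receptor, had 176, 195 and 184 CPM in the poor and 82.3, 56.7 and 60.7 CPM in the rich libraries. Among the higher genes on no list, Lipg, endothelial lipase, had 3.09, 20.7 and 3.82 CPM in the poor and 105, 44.7 and 44.9 CPM in the rich libraries and a difference of 3.00 (SE 0.86). Ccrl2, a chemerin-binding receptor, had 56.4, 54.03 and 74.3 CPM in the poor and 195, 835 and 572 CPM in the rich libraries. Prnp, the prion protein gene, had 25.2, 47.5 and 34.1 CPM in the poor and 389, 170.0 and 247 CPM in the rich libraries, and overlaps Prn on the same strand. All 6 genes were separate between the classes.

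**Figure D4:**
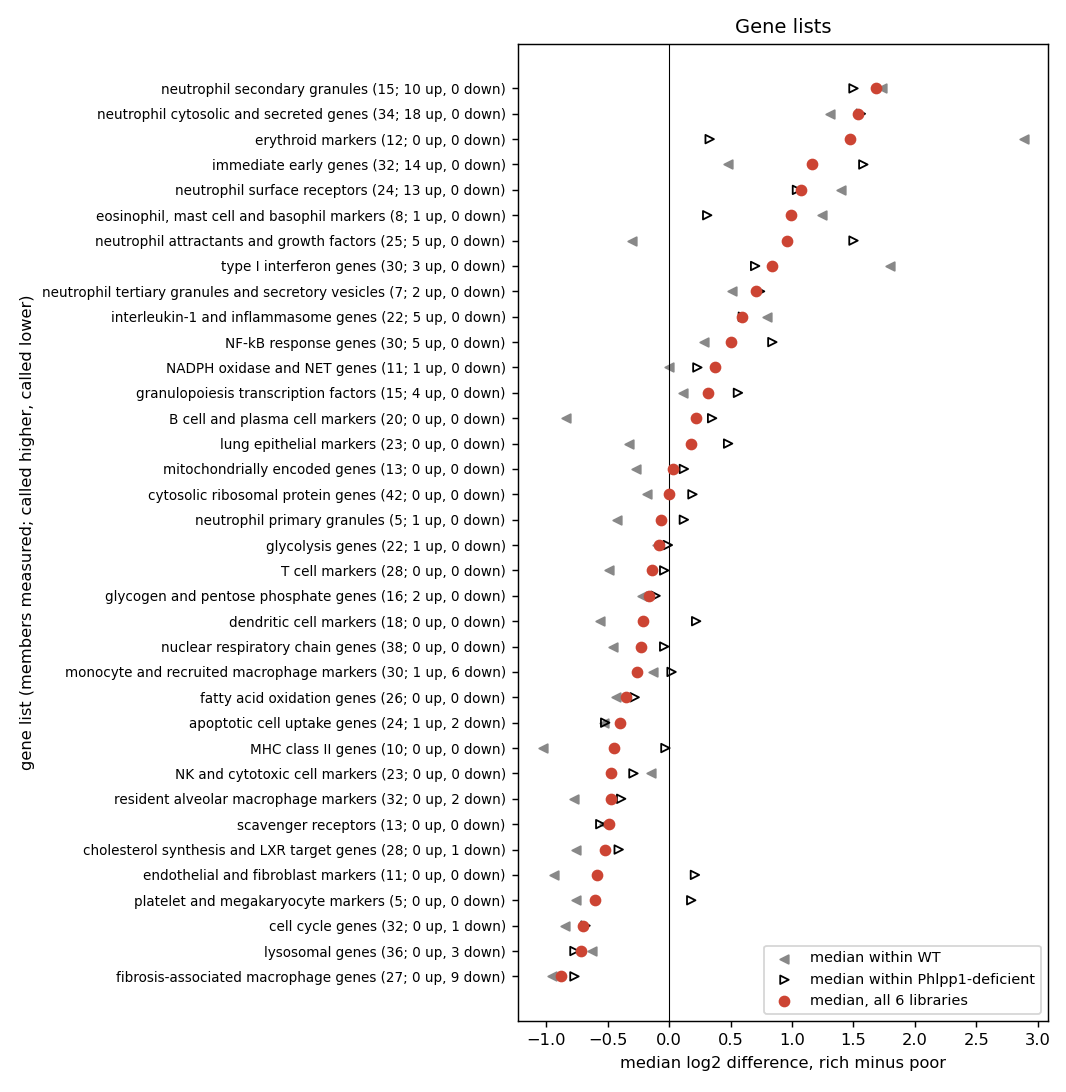
Median difference between rich and poor libraries over the tested members of each gene list, on the log2(CPM + 1) scale. Circles stand for all 6 libraries, filled triangles for WT and open triangles for Phlpp1-deficient libraries, and the labels give the members tested and called in each direction. Secondary granule and cytosolic neutrophil genes lie to the right, fibrosis-associated, lysosomal and cell cycle genes lie to the left, and ribosomal and mitochondrially encoded genes lie around 0.

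Cell cycle genes were below 0 in 32 of 32, with a median of -0.70. With every rich value below every poor one at any size of difference were 27 of them, beside 21.4% of all genes. Only 1 was called. That number became 4 when WT library 1 was left out and 2 when WT library 3 was. It became 3 on leaving out Phlpp1-deficient library 1 or library 2, and 0 on leaving out library 3 of that genotype, under RLE or with a pseudocount of 5. Plk1, a kinase of mitosis, had 21.8, 23.4 and 28.5 CPM in the poor and 10.6, 13.02 and 9.67 CPM in the rich libraries. Cholesterol synthesis and LXR target genes had a median of -0.52 with 1 of 28 called lower, the same Apoe. Without Phlpp1-deficient library 3, 2 were called. At any size of difference, 21 of the 28 had every rich value below every poor one, beside 21.4% of all genes. Hmgcs1, an early enzyme of the pathway, differed by -0.86 (SE 0.11). Fatty acid oxidation genes had a median of -0.35 and nuclear respiratory chain genes of -0.23, with 0 called in either. Every rich value lay below every poor one in 11 of 26 and 14 of 38 of them. Mitochondrially encoded genes had a median of 0.03 and cytosolic ribosomal protein genes of 0.

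Glucose metabolism was mixed. Glycolysis genes had a median of -0.08 and 1 of 22 called higher (4.55%, beside 2.37% of all genes). That gene, Slc16a3, a lactate exporter, had 56.7, 111 and 59.97 CPM in the poor and 169, 135 and 176 CPM in the rich libraries. None was called without WT library 1 or Phlpp1-deficient library 3, and 2 without WT library 3 or Phlpp1-deficient library 2. Glycogen and pentose phosphate genes had a median of -0.16, with the glycogen phosphorylases Pygl and Pygm called higher by 1.01 and 1.14. Within Phlpp1-deficient libraries these differences were 0.65 and 0.74. None of the list was called without WT library 2 or with a pseudocount of 5, and 1 without WT library 1 or Phlpp1-deficient library 2. Pygl had 201, 225 and 259.8 CPM in the poor and 576, 313 and 533 CPM in the rich libraries. Neutrophils are known to store glycogen.

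Of the markers of other cell types, 1 was called, the eosinophil-associated ribonuclease gene Ear6. Its list had 5 called without Phlpp1-deficient library 3 and 2 without library 2. Erythroid genes had a median of 1.47 with 12 of 12 above 0 and 0 called. Hbb-bs, an adult beta globin, had 120.0, 132 and 269 CPM in the poor and 2389.8, 89.7 and 1325 CPM in the rich libraries. The list mean was 6.51 in WT library 2 and 6.32 in Phlpp1-deficient library 2, and between 3.70 and 4.75 in the other 4 libraries, the rich Phlpp1-deficient library 1 being the lowest. Without Phlpp1-deficient library 1 the median was 2.67. Whether blood carried over in the lavage has a part in the neutrophil values of those 2 libraries was not tested.

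B cell and plasma cell markers had a median of 0.22, with 0 of 20 called, and Phlpp1-deficient library 1 was the highest rich library in 20 of 20. Ighm, the IgM heavy chain, had 272, 152 and 276 CPM in the poor and 135, 659 and 169 CPM in the rich libraries. T cell markers had a median of -0.14, with 0 of 28 called and that same library highest of the rich in 27. NK and cytotoxic cell markers had a median of -0.47, and 0 of 23 were called. MHC class II genes had -0.45 and dendritic cell markers -0.21, with none called in 10 and 18. The MHC class II median was -1.03 within WT and -0.03 within Phlpp1-deficient libraries. Phlpp1-deficient library 1 was the highest of the rich in 10 of those 10 genes. Eosinophil, mast cell and basophil genes had a median of 0.99 over 8, with Ear6 called. The eosinophil granule protein gene Prg2 had 0.379, 2.54 and 11.4 CPM in the poor and 7.61, 10.9 and 42.7 CPM in the rich libraries.

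Lung epithelial markers had a median of 0.18, with 0 of 23 called. Scgb1a1, the secretoglobin of club cells, had 90.4, 119 and 199 CPM in the poor and 108, 176 and 582 CPM in the rich libraries. Platelet genes had -0.60 over 5 tested, and endothelial and fibroblast genes -0.59 over 11, with 0 called in either. The latter median was 0.07 without WT library 1, in which the list mean was 3.70 against 2.13 to 2.43 in the other 5.

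**Figure D5:**
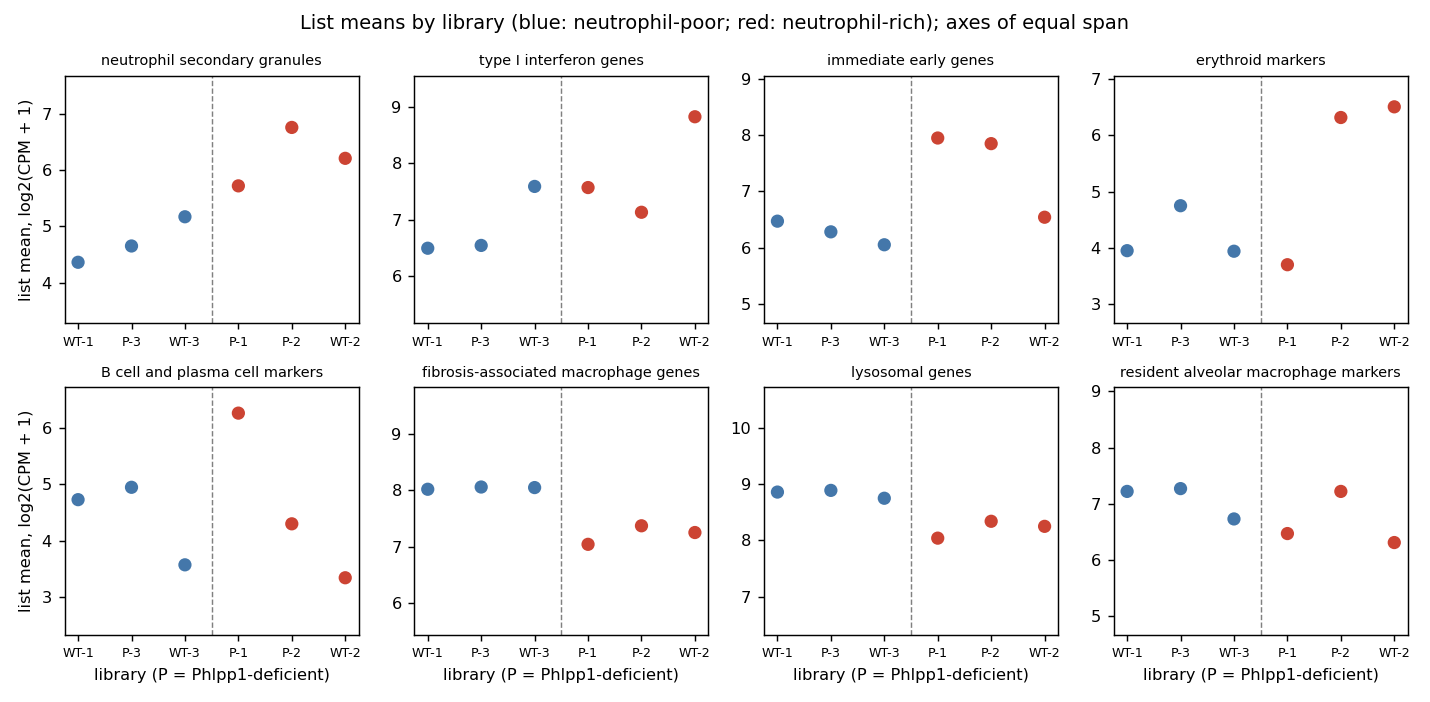
Mean of log2(CPM + 1) over the tested members of 8 gene lists in each library, on vertical axes of equal span, with blue points for the poor and red points for the rich libraries. Secondary granule, fibrosis-associated and lysosomal genes separate the classes, interferon genes peak in WT library 2, immediate early genes in Phlpp1-deficient libraries 1 and 2, erythroid genes in WT library 2 and Phlpp1-deficient library 2, and B cell genes in Phlpp1-deficient library 1.

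Genotype was tested with edgeR's quasi-likelihood test over 14037 genes, with Benjamini-Hochberg adjustment. In the fit without the class, 14 genes passed (0.0997%), 7 higher and 7 lower in Phlpp1-deficient libraries. With the neutrophil class as a second term 28 passed (0.199%), 10 higher and 18 lower, the earlier 14 among them, and with the marker mean as a number 53 passed. Of the genes called between rich and poor, 430 could be tested by genotype, and 0 passed without the class by edgeR. Of the 430, 22 had an unadjusted edgeR p under 0.05, beside 977 of all 14037 genes, and 4 passed by DESeq2, beside 199. The 430 were chosen for a difference between classes, and each genotype holds both classes, so the choice widened the spread within each genotype. The 0 therefore cannot decide whether these genes depend on genotype. With the class, 1 of the 430 passed: Cebpd. Its log2 difference between Phlpp1-deficient and WT was -0.81 (adjusted p = 0.974) without and -1.42 (SE 0.17, adjusted p = 0.0465) with the class in edgeR. Within the rich and within the poor class, the Phlpp1-deficient values given above were below the WT values. When each library was left out of the fit with the class, Cebpd passed only without WT library 1, and the adjusted p was between 0.0425 and 0.206 over the 6 edgeR fits.

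Other genes that passed only with the class were Ccl12, a monocyte-attracting chemokine, and Socs1, which restrains cytokine signalling. Ccl12 had 18.9, 20.4 and 5.77 CPM in the poor and 27.2, 10.7 and 12.4 CPM in the rich libraries (log2 difference by genotype -1.54, edgeR adjusted p = 0.0369). Socs1 had 26.8, 25.8 and 7.05 CPM in the poor and 35.2, 17.4 and 11.7 CPM in the rich libraries (log2 difference by genotype -1.62, edgeR adjusted p = 0.0465). Ctse, an aspartic protease, was higher in all Phlpp1-deficient libraries, by 3.40 on the log2 scale (edgeR adjusted p = 0.0165 with and 0.0661 without the class). With each library left out in edgeR, Ccl12 passed in 1 of 6 fits (adjusted p up to 0.182), Socs1 in 2 (up to 0.214) and Ctse in 3 (up to 0.12). These 3 were picked after inspection of the values. The number that passed with the class ranged from 4 without WT library 3 to 69 without WT library 1, with 5 when WT library 2 and 6 when Phlpp1-deficient library 3 was the one left out.

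Some counts are uncertain where a near-identical copy could take reads. Besides the genes above, Csf3r shares 1518 bases at 96.8% identity with AC105061.2, Fabp5 409 bases with Gm6166, and Hbb-bs 323 bases with Hbb-bt. The overlapping gene Il1bos lies on the strand opposite Il1b, and the sources used here do not give the strand setting of the counting.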

How the data were processed

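One table was deposited by the authors. Its headers show read counts beside FPKM values, for 34745 genes and 6 libraries; the deposited counts are whole numbers and are not scaled, and all 12 columns were matched to samples by name. HISAT2, edgeR, StringTie 1.3.0 and mm10 appear in the submitters' processing notes, with no role stated. Gene IDs were matched to GENCODE M21 (on GRCm38, which mm10 also denotes); 34267 received a symbol and 478 did not. Coordinates are 1-based. Depth is the total count of a library, 13340861 to 15843764, and libraries of a genotype differed by more than sampling noise (chi-square per gene of 32.81 or more over 12813 genes).

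The FPKM values were used as deposited by the authors, per the file headers, and the gene lengths behind them are not stated. CPM was computed from column totals, and a pseudocount of 1 was added before log2, so differences of low genes are understated. The standard error of a difference comes from the spread within the 3 libraries of each class. The members, gene lists and motifs were chosen with earlier results of these data known. The naming rule took the 6 markers, the 14 largest differences in each direction among called genes (at least 5 CPM in the higher class, the same sign within each genotype, no clone or predicted name), up to 4 members of each list by size of difference, and the most abundant member of each list of another cell type. Any other gene was named after its values were seen, among them Oas2, Oasl2, Spp1, Mmp12, Timp2, Lyz1, Marco, Siglecf, Fabp1, Elane, Ctsg and Bpi.

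Genotype was tested with edgeR 4.0.16 on the counts under R 4.3.3 (filterByExpr, TMM, robust glmQLFit, glmQLFTest, Benjamini-Hochberg adjusted p under 0.05); the biological coefficient of variation was 0.281. The p-values measure the spread between these libraries. The scripts were tested on simulated data. Alternatives were RLE and TMM factors, pseudocounts of 0.25 and 5, other filters and thresholds, each library left out, DESeq2 1.42.0, and a second term for class, marker mean or replicate number. A copy is a transcript match of 150 bases or more with 95% identity or higher.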

Additional observations from a re-analysis of the deposited data

Results flagged for a closer look

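For 10 named genes every library moved one way with the class in WT and the other way in Phlpp1-deficient libraries, which rests on 1 rich WT library and 1 poor Phlpp1-deficient library, and the difference was not tested. Values are the rich minus poor difference within Phlpp1-deficient libraries less that within WT, on the log2(CPM + 1) scale. The eosinophil and macrophage lipoxygenase gene Alox15 gave -2.10, being higher in the rich library of WT (1.67) and lower in those of Phlpp1-deficient mice (-0.43). The other genes had the reverse signs. Among lymphocyte and dendritic cell genes, the B cell kinase Blk gave 2.11, the T cell receptor Ctla4 1.58, the actin-bundling protein of mature dendritic cells Fscn1 1.97 and the chemokine receptor Xcr1 1.31. Among matrix genes, the collagen chain Col1a2 gave 2.45 and periostin (Postn) 1.82. Both rest largely on WT library 1, with 19.9 CPM of Col1a2 and 5.49 CPM of Postn against 0.803 and 0.469 CPM in WT library 3. Without WT library 1 the values were 0.69 and 0.75, and without WT library 3 they were 4.22 and 2.89. The platelet chemokine Ppbp gave 1.95, the respiratory chain subunit Cox5b 2.02 and the ribosomal protein gene Rps6 0.58. Rps6 gave 0.25 without Phlpp1-deficient library 1 and 0.92 without library 2. Cox5b and Rps6 have near-identical copies, so their counts are uncertain.

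The mean over a gene list also moved in opposite directions for 5 lists, again untested. The same difference was 0.38 for cytosolic ribosomal proteins, 0.87 for dendritic cell markers, 0.69 for lung epithelial markers, 0.72 for platelet markers and 0.97 for endothelial and fibroblast markers. Without WT library 1 the last of these was 0.20, and without WT library 3 it was 1.75. The ribosomal value was 0.24 without Phlpp1-deficient library 1, and the epithelial value was 0.35 without Phlpp1-deficient library 2.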

How the results depend on the processing

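The rich and poor classes were unchanged under TMM or RLE factors, deposited FPKM, 4 other neutrophil lists and each marker left out, and shared 1 of 3 libraries with primary granule genes as markers. The count of genes called higher (319) was 211 with a pseudocount of 5 and 62 with a difference of at least 2, and 309 to 427 with each library left out. The count called lower (116) was 73 with RLE factors, 189 and 50 with pseudocounts of 0.25 and 5, 0 with a difference of at least 2 and 54 when required within each genotype, and 134 to 205 with each library left out. List medians moved by more than the spread in few cases: secondary granules 2.31 and 0.89 with pseudocounts of 0.25 and 5, glycogen -0.06 and cholesterol -0.43 with RLE factors. With each library left out, medians ranged from 1.51 to 2.17 for secondary granules, 0.16 to 0.37 for oxidase, 0.12 to 0.41 for transcription factor, 0.46 to 0.74 for interleukin-1, -0.58 to -0.38 for apoptotic uptake and -0.19 to 0.05 for glycolysis genes. They ranged from -0.42 to -0.20 for fatty acid oxidation, -0.57 to -0.43 for cholesterol, 0.75 to 2.67 for erythroid and -1.07 to 0.07 for endothelial and fibroblast genes. The number of genes that passed by genotype (14) was 28 with the class and 53 with the marker mean as a second term, 36 without a filter, 199 with DESeq2 and 1 to 32 with each library left out. The replicate number as a block gave 1. Deviations from the genotype mean had r of -0.126, 0.335 and 0.294 between same-numbered libraries, and between -0.474 and 0.342 for differently numbered ones. With 3 libraries per genotype these values cannot decide whether the numbers pair the libraries. The difference of the neutrophil marker mean by genotype ranged from -0.14 to 1.706 with each library left out, and it turned negative without WT library 1. The cause of these changes was not tested. At this depth genes under 1 CPM were not read.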

Other observations

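Of the 319 genes higher in the rich libraries, 234 stood on no list, and the following were named after their values were seen. Several code for receptors of myeloid cells: Gpr84, a receptor for medium-chain fatty acids, differed by 2.57, and Trem3, of the Trem1 family, by 2.43. Saa3, an acute phase protein, differed by 2.16, and Mefv, which codes for the inflammasome sensor pyrin, by 2.25. Among lower genes on no list, the aminopeptidase Anpep differed by -1.40 and the gelatinase Mmp2 by -1.37.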
